A study of Saccharomyces cerevisiae with 30 samples.

Results

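The transcriptome of evolved tetraploid clone 1 (evo4N-1) was compared with that of its own tetraploid ancestor (anc4N-1) in cultures grown at 36°C. The comparison consisted of the 3 arrays whose titles name evolved 1 and ancestral 1, out of 30 arrays in the series. Evolved cells had passed through 1000 generations of growth in rich medium at a temperature below 36°C, and the ancestor had not. Each evolved clone was the colony of highest fitness among those isolated from its line. Both were tetraploids of the budding yeast W303 background in which SPO11, needed for meiotic recombination, had been deleted, so this deletion is shared by both channels and by all lines. Evolved clone 1 stands for a single line, and lines were marked in turn with kanMX6 or cloNAT, drug resistance markers. The other 7 lines were built and compared in the same way, each against its own ancestor on 3 arrays, and line 4 was also set against a diploid. Evolved RNA carried Alexa Fluor 647 and ancestral RNA Alexa Fluor 555 on every array of evolved over ancestral cells, with no dye swap. A log2 ratio below 0 therefore means less signal in the evolved clone, as the labels have it.

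Polyploid cells carry extra sets of chromosomes. Newly formed yeast tetraploids are larger than diploids, lose chromosomes more often and tolerate several stresses poorly, and long propagation can select for variants that cope better with the extra genome. Expression arrays of evolved and ancestral cells show which transcripts differ in relative level after such propagation. Each array is centred near 0, so a shift of all transcripts together leaves no trace in these ratios. In RNA from a whole culture, fewer cells with a transcript and less of it per cell cannot be told apart.

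Strong changes in line 1 were few, and most of them were decreases. Of 6251 rows tested, 39 (0.624%) were called, that is, their mean ratio was at least 2-fold (1 on the log2 scale, up or down) and their adjusted p was under 0.05 in limma with Benjamini-Hochberg adjustment. Of these calls 33 were lower (0.528% of rows tested) and 6 were higher (0.096%), so 84.6% of the calls were lower in evo4N-1. Most of the called rows lay on the opposite side of 0 in line 3, and 25 lower and 3 higher calls were opposed to the mean of the other 7 lines. These were 71.8% of the calls, beside 56.6% of rows past the adjusted p with no fold minimum. With line 3 left out, 21 calls were opposed. The 3 arrays were technical triplicates of RNA isolation, so p-values within the line measure technical spread only. The fit pools that spread over all groups. Line 1 had the largest median row SD, 0.164 beside 0.0803 to 0.136 in the other lines. Its p-values may therefore be too small. With line 1 fitted alone, 35 rows were called, 4 higher and 31 lower.

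Rows are given below by the identifier that stands beside them in the table, such as YLR151C_01, and this identifier is used as a row label only. The labels have the form of yeast systematic names, and 5840 of 6377 have an entry in the R64 annotation. Whether the values bear the names out was examined with 15 gene lists. The 123 complete rows listed as cytosolic ribosomal proteins, genes that usually move together in yeast, had a mean pairwise correlation of −0.00300 over the 30 arrays, beside 0.00177 for all complete rows. The lists ranged from −0.0242 for histones to 0.119 for the mitochondrially encoded genes, which are the first 28 rows of the table. For this reason no gene symbol or function is attached to a row.

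The listed groups held calls at a share near the background, with 3 of 558 tested list rows called (0.538%, beside 0.624% over all rows tested). Among the 133 tested rows listed as ribosomal proteins, 26 were higher and 24 were lower past the adjusted p, 0 were called, and their median log2 ratio was 0.00467. All 6251 tested rows had 1253 higher and 1286 lower past that limit, with a median of 0.00557. Among 30 rows listed as heat shock chaperones 8 were higher and 6 lower past the adjusted p. The 94 rows listed as ribosome biogenesis factors held 1 higher and 1 lower call, the 10 listed histones held 1 higher call, and the remaining lists held 0. List medians ran from −0.0453 to 0.0987.

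The 3 arrays of line 1 were not equally alike. Arrays 2 and 3 correlated at 0.729 over rows, and array 1 correlated with them at 0.523 and 0.490. Array 1 was also broader, with an interquartile range of 0.551 beside 0.352 and 0.314. It held 93 rows at −1 or lower and 40 at 1 or higher, whereas array 2 held 51 and 9, and array 3 held 34 and 7. A row varied over the 3 arrays by a median SD of 0.164, above the range of 0.0803 to 0.136 in the other lines. The 3 arrays lacked 564 values in all, the most of the 8 lines, and 4 further cells stood at the floor of the table and were set to missing. Results are therefore given with and without array 1 where it matters.

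The strongest decreases were present on all arrays. YLR151C_01 had log2 ratios of −1.80, −2.84 and −3.45 on arrays 1, 2 and 3 (mean −2.70, SD 0.834, n = 3), with an adjusted p of 6.30e-12 in limma. The standard error behind that p was 0.171, from spread pooled over all groups. YDR363W_01 stood at −1.85, −2.32 and −2.40 (mean −2.19, adjusted p 8.18e-15, limma). YLR080W_01 stood at −2.28, −1.70 and −1.92 (mean −1.97, adjusted p 1.48e-08, limma). Array 1 was the weakest of the triplicate for YLR151C_01 and YDR363W_01 and the strongest for YLR080W_01. YGR050C_01, at −1.14, −2.14 and −2.09, came next with a mean of −1.79.

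A group of 6 further rows made up the rest of the 10 lowest, with means between −1.55 and −1.48. YPR144C_01 was measured at −1.51, −1.60 and −1.55, and YMR238W_01 at −1.49, −1.57 and −1.57. YDR356W_01 was as close across arrays, at −1.46, −1.48 and −1.52. For these rows the spread between arrays was small beside the change. YPL145C_01 lay at −1.39, −1.68 and −1.52. YER035W_01 lay at −1.70, −1.45 and −1.28, and YOR138C_01 at −1.85, −1.54 and −1.15. In the last pair of rows array 1 was the lowest and array 3 the highest.

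The increases were fewer and less even. YDR225W_01, the highest, had 1.47, 1.61 and 1.69 on the 3 arrays (mean 1.59, adjusted p 2.76e-14, limma). YGR041W_01 had 1.15, 1.66 and 1.61, and YOR315W_01 had 1.25, 0.89 and 1.15. Those rows were high on each array. YPL137C_01 had 2.35 on array 1, 0.65 on array 2 and no value on array 3. YNR038W_01 had 1.82, 1.19 and 0.17. The means of both rows thus lean on array 1.

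**Figure D1:**
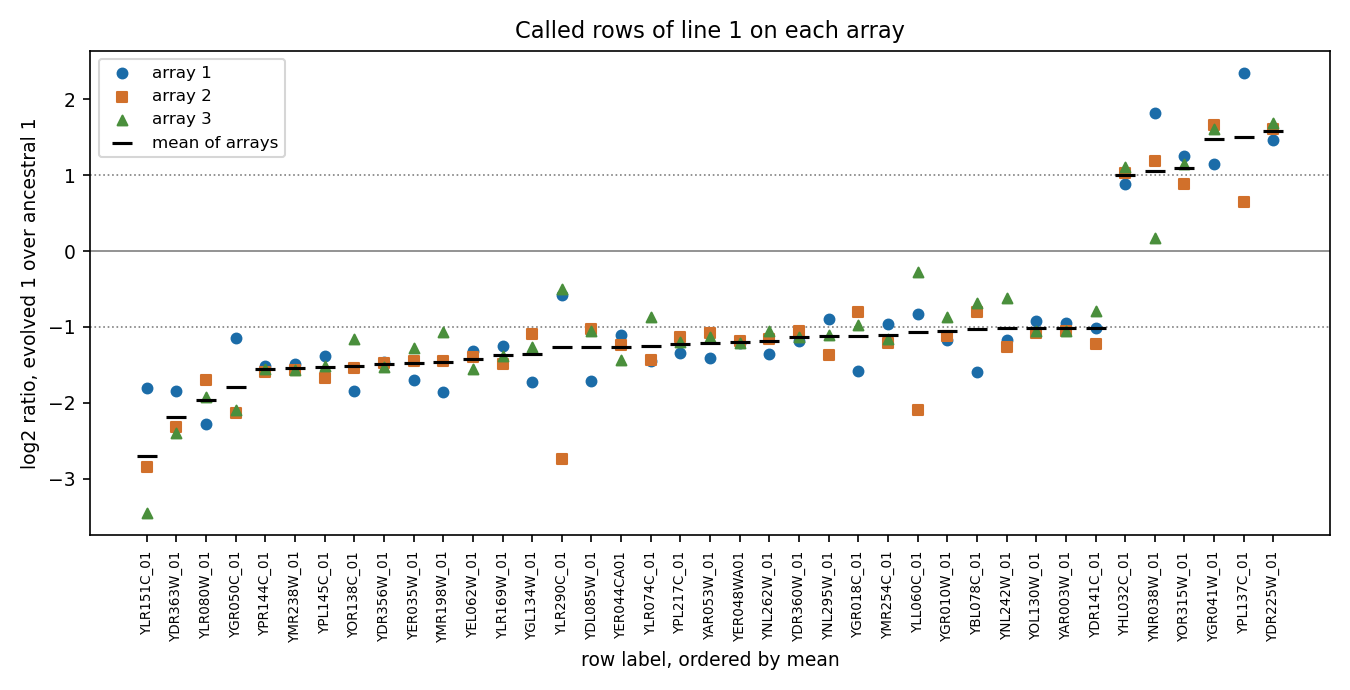
Log2 ratio of evolved 1 over ancestral 1 (vertical axis) for the 39 called rows, ordered by mean along the horizontal axis, with 1 symbol per array and a bar at the mean; dotted lines mark the 2-fold limit. All 39 rows have 1 sign on all of their arrays, and YLR290C_01 and YLL060C_01 reach far below the limit on array 2 alone.

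All 39 calls had the same sign on every array on which they were measured, and 23 of them, 21 lower and 2 higher, were at least 1 in size on each array. Other calls leaned on a single array. YLR290C_01 stood at −0.57, −2.74 and −0.50, and YLL060C_01 at −0.83, −2.09 and −0.28, so that array 2 carried both. With any 1 array left out, 26 calls were kept, 23 lower and 3 higher. Without array 1, 33 of the 39 were kept and the number of calls was again 39, of which 34 were lower. At the limit itself, YHL032C_01 (mean 1.01) and YDR141C_01 (mean −1.01) lay just inside, and YOL114C_01 (−0.99) and YAL008W_01 (−0.99) just outside.

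The skew towards lower ratios was a property of the tail and not of the bulk. At a mean of at least 0.25 in size, 52.5% of rows were lower, with 1062 lower and 962 higher. At 0.5 the share was 67.1% (278 lower, 136 higher), at 0.75 it was 77.7% (80 and 23), and at 1.5 it was 88.9% (8 and 1). Past the adjusted p with no fold minimum there were 2539 rows (40.6%), of which 50.6% were lower. The median row was at 0.00557.

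Tail balance, the sum of the 1st and the 99th percentile of the line means, summarised this. It is below 0 where the low tail is longer. In line 1 the percentiles were −0.796 and 0.616 and the balance was −0.18. The other 7 lines had balances between −0.025 and 0.218. On single arrays of line 1 the balance was −0.162, −0.284 and −0.187, so each array leaned the same way. The share of lower rows among calls was 7.14% to 53.7% in the other lines. An exact two-sided permutation test of line 1 against the 7 lines gave p = 0.125 for the balance and for that share, the smallest p that 1 line against 7 allows, and 0.188 after adjustment over 6 measures. When the 24 arrays were forced to 1 distribution by quantile normalization, 22 of 40 calls (55.0%) were lower and the balance was 0.00273. This scaling gives all arrays the same percentiles, so the loss of the skew is largely built in and does not test it.

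**Figure D2:**
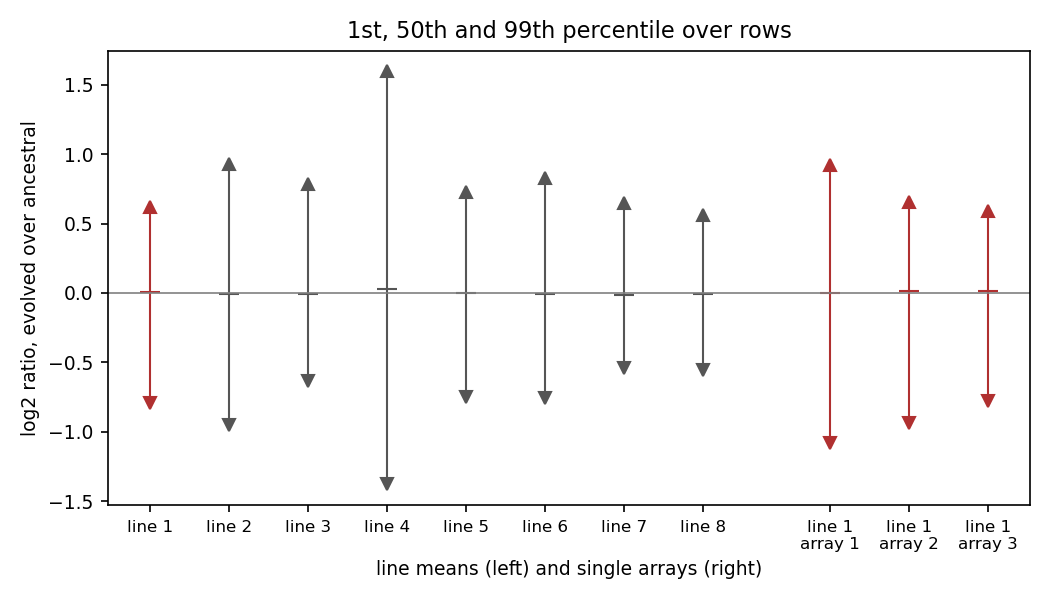
The 1st percentile (downward triangle), median (bar) and 99th percentile (upward triangle) of the log2 ratios of evolved over ancestral cells, for the means of the 8 lines and for each array of line 1 (red). In line 1 the low tail, at −0.796, is longer than the high tail, at 0.616, and the 3 arrays lean the same way.

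In overall size line 1 was unexceptional. The median absolute log2 ratio was 0.166, within the range of 0.117 to 0.31 in the other lines, and the other lines had 13 to 521 calls. An exact two-sided permutation test gave p = 0.75 for each of these measures, before and after adjustment over the 6 measures.

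The pattern of changes in line 1 ran against that of the other lines. Across 6070 rows with values in all 8 lines, line 1 correlated at −0.415 with the mean of the other 7, whereas each other line correlated positively with the mean of its own other 7, at 0.124 to 0.627. The arrays of line 1 gave −0.269, −0.403 and −0.421. With single lines the correlation was −0.206 for line 2, −0.71 for line 3, −0.362 for line 4, −0.189 for line 5 and −0.193 for line 6. With lines 7 and 8 it was near 0, at −0.0614 and 0.0504. Rows are not independent replicates, so these values describe the arrays and carry no p.

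Among pairs of lines that leave line 1 out, the lowest correlation was −0.215, between lines 7 and 8. The deposited direction of line 1 rests on its labels and on the stated dyes. The direction was kept as labelled, and whether the dyes of line 1 or of line 3 lay as labelled was not tested. With the sign of line 1 turned, the correlation with the mean of the others becomes 0.415, the tail balance 0.18 and the share of lower calls 15.4%.

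Where the mean of the other 7 lines was subtracted, line 1 stood apart in more rows than it was itself changed in. The contrast was called in 141 of 6070 rows (2.32%), 77 lower (1.27%) and 64 higher (1.05%), and it passed the adjusted p with no fold minimum in 3335 rows (54.9%). Of the 141 rows, 106 were not called in line 1 itself, and 35 of the 39 calls of line 1 were among the 141. Calls share their line 1 values with this contrast, so such an overlap is in large part built in. A dye effect that is the same on every array cancels in this contrast. After quantile normalization 149 rows were called, 57 of them lower (38.3%, beside 54.6% without it). Turning the sign of line 1 left 25 called rows.

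The lowest differences belonged to rows that were down in line 1, and up in lines 3 and 4 in 4 of the 5 cases. YDR363W_01 differed by −2.85, with line 3 at 2.31, line 4 at 1.54, line 2 at 0.57 and line 6 at 0.50, while lines 5 and 7 were slightly below 0, at −0.11 and −0.25. YLR080W_01 differed by −2.81, with 2.16 in line 3, 1.33 in line 4 and 1.08 in line 6, and −0.24 in line 7. YMR198W_01, measured at −1.86, −1.45 and −1.07 in line 1, differed by −1.98, with line 7 at −0.24. Line 7 was thus on the same side of 0 as line 1 in each of these rows. YPR144C_01 differed by −1.90, with lines 2, 5 and 7 at −0.16, −0.12 and −0.09. In YLR151C_01 the difference was −2.60, but there the other lines disagreed among themselves, from −2.56 in line 3 to 1.24 in line 2.

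The highest differences included rows that were up in line 1 and down in most or all of the other lines. YJR010W_01 had the largest difference, 2.43. In line 1 it stood at 0.19, 0.78 and 1.27 (mean 0.748), and in the other 7 lines the means lay between −2.32 and −0.784. Line 1 was thus the highest of the 8 lines, as it was in 1287 of 6070 rows (21.2%). It was also the only line above 0, as it was in 333 rows (5.49%). YLR341W_01 differed by 1.53, with 0.582 in line 1 and 6 of the other 7 lines between −2.46 and −0.64. YKL003C_01 differed by 1.48, with 0.712 in line 1 and all other lines below 0. None of these 3 rows reached the 2-fold limit in line 1. Each was above 0 past the adjusted p in limma, at 0.00182, 0.000299 and 0.00304. Of all tested rows 40.6% passed that limit in either direction. The line 1 values also enter the difference by which these rows were picked, so this is no separate support. YGR041W_01 (1.84) and YDR225W_01 (1.49) completed the 5 highest differences, and both were also called in line 1.

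A called row was counted as opposed when the mean of the other 7 lines had the other sign with an adjusted p under 0.05 in limma, and 28 of the 39 calls (71.8%) met this. Of the 2539 rows past the adjusted p with no fold minimum 1438 (56.6%) did, and over all 6070 rows with a mean in each line 63.7% had the other sign, so opposition was not particular to the calls. With line 3 left out, 21 calls were opposed. The single lines differed in this. In lines 3, 4, 6 and 8, 33, 23, 20 and 10 calls passed the adjusted p in the opposite direction. In the same direction 2, 5, 4 and 2 passed there. In lines 2, 5 and 7 only 9, 6 and 3 passed in the opposite direction, beside 12, 14 and 14 in the same. Among the opposed calls, YDR363W_01, YLR080W_01, YMR198W_01, YPR144C_01 and YOR138C_01 had the largest differences. For YOR138C_01 the other lines ranged from −0.12 in line 2 to 1.02 in line 3, and 6 of 7 were above 0. Only YAR053W_01, at −1.21 in line 1 and 0.03 to 1.28 elsewhere, had the opposite sign to every other line. Over all 6070 rows, 536 (8.83%) had the opposite sign to all other 7 lines, 203 with line 1 below 0 and 333 with line 1 above 0. The same count for each other line in turn was between 11 and 161. With the sign of line 1 turned, 117 rows had the opposite sign to all other lines and 3 called rows were opposed.

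**Figure D3:**
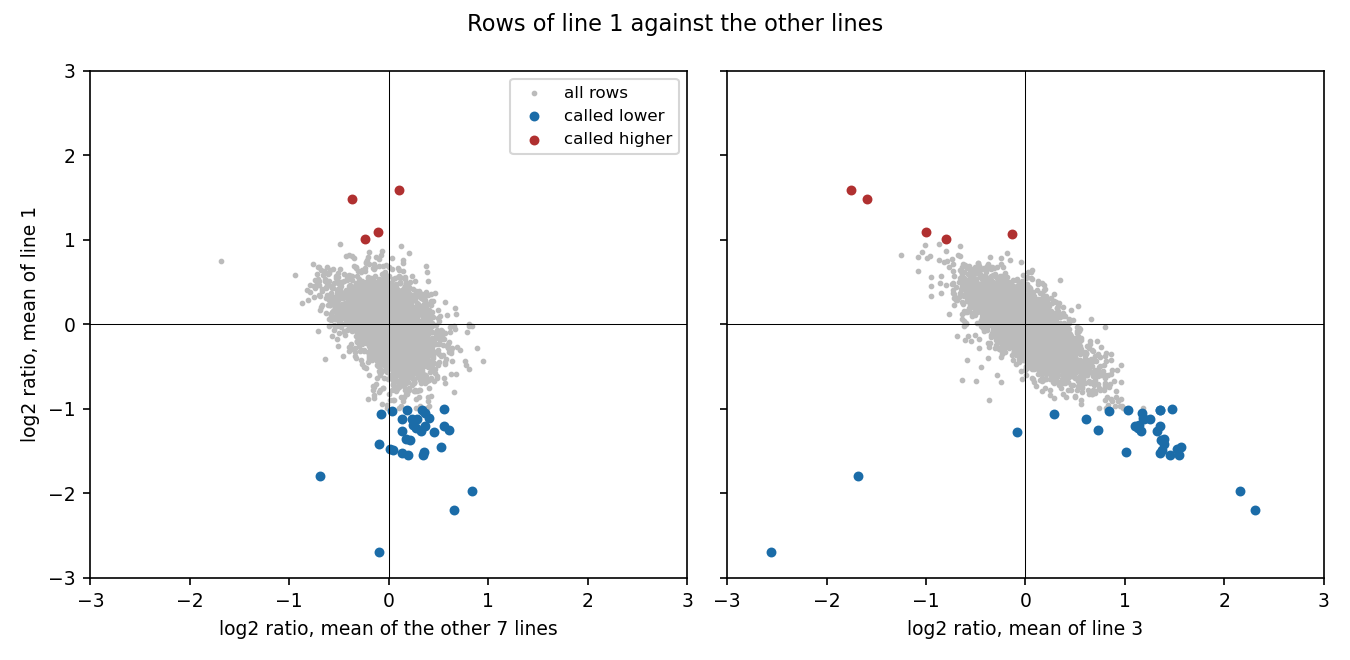
Mean log2 ratio of line 1 (vertical axis) against the mean of the other 7 lines (left) and against line 3 (right), with 1 point per row; blue points were called lower and red points higher in line 1. The cloud slopes downwards in both panels, with r = −0.415 and r = −0.71, and a pair of blue points at the lower left of the right panel, YLR151C_01 and YGR050C_01, are low in both lines.

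A stricter count took rows in which line 1 passed the adjusted p against each of the other 7 lines in 1 direction. There were 666 of these (11%), 329 lower (5.42%) and 337 higher (5.55%), and 32 of the 36 calls with a test against every line were among them. Large values in line 1 enter both counts, so this overlap too is in large part built in. Line 1 was the lowest of the 8 lines in 1275 rows (21%) and the highest in 1287 (21.2%). Among the other lines, only line 4 was the lowest or the highest more often, in 25.7% and 26.7% of rows, and the remaining lines took 6.34% to 12.5%. With the sign of line 1 turned, line 1 lay below all other lines in 699 rows and above them in 694. Without array 1, 510 rows were set apart, and with the sign of line 1 turned 16 were.

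These tests use the spread between technical arrays. When each line counted as 1 replicate, the difference between line 1 and the other 7 passed the adjusted p in 0 of 6220 rows (limma on line means), with a smallest adjusted p of 0.28. At an unadjusted p under 0.05 there were 830 rows (13.3%), 410 lower and 420 higher. Of the 39 calls of line 1, 32 were among them, but the calls were chosen for large values in line 1 that also enter this test. That overlap is therefore no separate support. With all 24 arrays and the line as a random block (correlation within a line 0.694), 129 rows passed and 76 were called. That fit counts all 24 technical arrays in its degrees of freedom, although 1 line is set against 7. Its counts may therefore overstate a difference between lines.

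Few changes belonged to line 1 by the call alone. Among the 39 calls, 4 were called in no other line in either direction. YNL295W_01 (mean −1.12) and YBL078C_01 (−1.02) were lower, and YHL032C_01 (1.01) and YNR038W_01 (1.06) were higher. YNL295W_01 stood at −0.90, −1.38 and −1.10 in line 1, beside 0.61 in line 3 and −0.63 in line 7. YBL078C_01 stood at −1.60, −0.80 and −0.68, with 0.84 in line 3. YHL032C_01 was even across arrays (0.88, 1.03 and 1.11), while lines 2 and 3 were at −0.70 and −0.80. YNR038W_01 had no mean in lines 5 and 7, and its values in line 1 were uneven, as given above. The count depended on the processing. It was 6 without array 1, 12 without array 2, 15 without array 3, 8 after quantile normalization and 8 with floor values kept. With line 3 left aside it was 26.

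**Figure D4:**
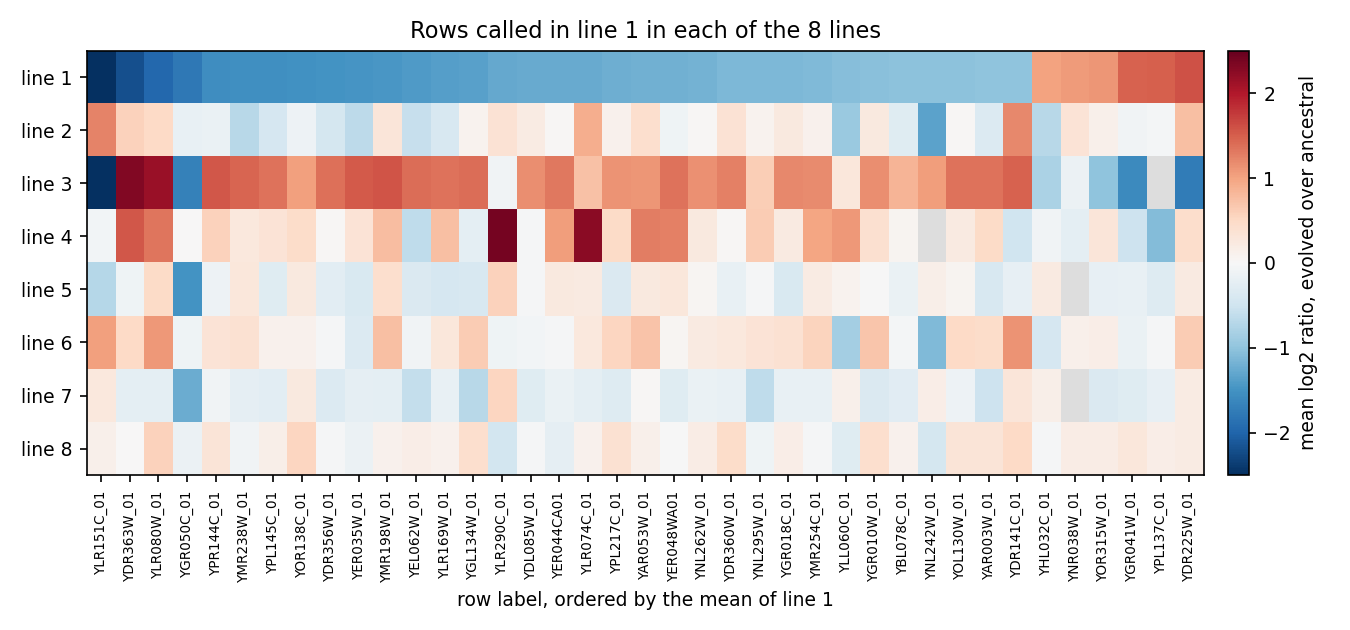
Mean log2 ratio of evolved over ancestral cells (colour, scale at right) for the 39 rows called in line 1 (horizontal axis) in each of the 8 lines (vertical axis); grey cells have no mean. Line 3 shows the reverse colour of line 1 in most columns, and lines 5, 7 and 8 are pale in most.

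Line 3 held the reverse of line 1. Of the 39 calls of line 1, 29 were called in the opposite direction in line 3, which is 74.4% of the calls of line 1 and 78.4% of the 37 calls of line 3. In line 3, 0.426% of all tested rows were called higher, whereas 26 of the 33 lower calls of line 1 were. The remaining 3 reversed rows were higher in line 1 and lower in line 3, namely YDR225W_01 (1.59 and −1.75), YGR041W_01 (1.47 and −1.59) and YOR315W_01, which was 1.09 in line 1. The median of the 33 lower calls was −1.26 in line 1 and 1.25 in line 3, beside 0.43 in line 4, 0.282 in line 6 and −0.23 to 0.114 in the others. In line 4, 9 calls of line 1 were called in the opposite direction, in line 6 there were 3 and in line 2 there were 2.

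The reversal was close in size as well as in sign. Of 38 calls with a mean in line 3, the sum of both means was within 0.25 of 0 in 27 and within 0.5 in 31. YPR144C_01 gave −1.55 in line 1 and 1.55 in line 3, and YMR238W_01 gave −1.54 and 1.46. The sum of lines 1 and 3, a contrast chosen after the values were seen, passed the adjusted p in 166 of 6250 rows (2.66%, limma), whereas their difference passed in 3191 (51.1%). Over all 28 pairs of lines, no other sum or difference passed in fewer than 765 rows, the difference between lines 2 and 6. Each array of line 1 correlated negatively with each array of line 3, from −0.364 to −0.718, and without array 1 the correlation of the means was −0.719.

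**Figure D5:**
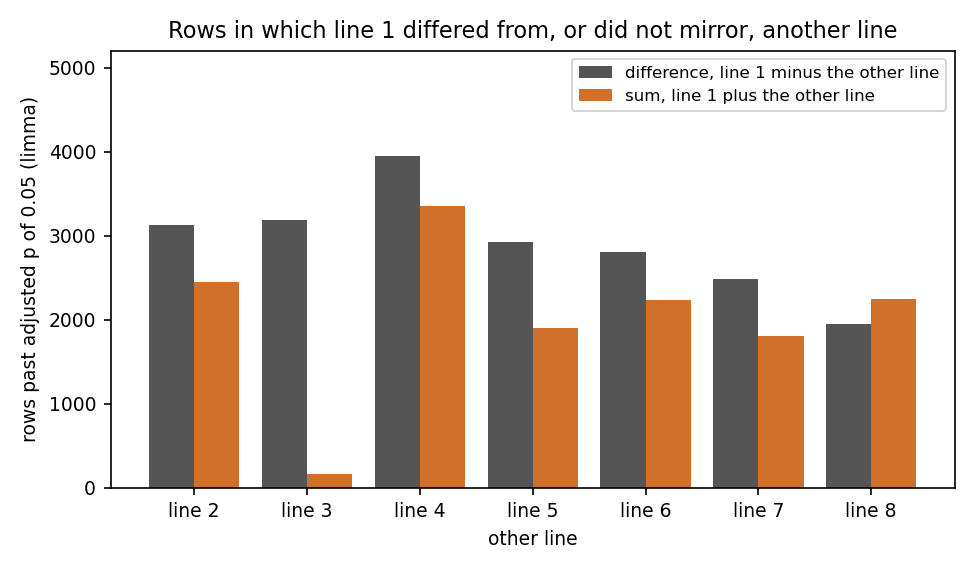
Number of rows past an adjusted p of 0.05 in limma (vertical axis) for the difference between line 1 and each other line (grey) and for their sum (orange), with the other line along the horizontal axis. The sum with line 3 passes in 166 rows and all other bars lie between 1810 and 3950.

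Some rows were not reversed. YLR151C_01, the lowest row of line 1, was also low in line 3, at −2.30, −2.90 and −2.48 (mean −2.56). Lines 2 and 6 were the other way, at 1.24 and 1.02, and line 5 was at −0.71. YGR050C_01 was low in lines 1, 3, 5 and 7, with means of −1.79, −1.68, −1.50 and −1.24. In lines 2, 4, 6 and 8 it stood at −0.19, 0.01, −0.11 and −0.14. The row was picked after its values were seen, and the share of all rows with such a split between odd and even lines was not counted. Markers kanMX6 and cloNAT alternated between lines, and their part in the values of this row was not tested. The sum of lines 1 and 3 was called in 6 rows in all, which were these, YLR290C_01, YGR164W_01, YDR363WA01 and YOR191W_01. Among the calls of line 1 it passed the adjusted p in 6 of 38, and 3 of those were called.

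Lines 4, 5 and 7 resembled line 1 in their number of empty cells (285 to 480 beside 564), while lines 2, 3, 6 and 8 had 58 to 127. Set against lines 4, 5 and 7 alone, line 1 correlated at −0.31 and was called different in 231 rows, with 14 of its calls opposed. Set against lines 2, 3, 6 and 8 it correlated at −0.381. Without line 3 the correlation with the mean of the other lines was −0.303. Against lines 2, 6 and 8, that set without line 3, it correlated at −0.168, so line 3 carried much of the relation there. With the comparisons of line 4 to a diploid, line 1 correlated at 0.027 (ancestral 4) and −0.318 (evolved 4).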

How the data were processed

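Cultures were grown to log phase at 36°C and total RNA was hybridised by the authors to spotted 2-colour oligonucleotide arrays. In GeneSpring GX the authors left out dim spots and applied LOWESS to each array, and they deposited log2 values of evolved over ancestral signal. Scanner intensities were not used here, so how far a spot stood above background is unknown, and the number of arrays limits the precision. Array medians near 0 and the log base were read from the values. Direction was taken from labels and methods.

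Groups came from sample titles. All 30 arrays were fitted in 1 model with limma 3.58.1 (R 4.3.3, lmFit and eBayes). A row needed values on 2 of 3 arrays, and for contrasts with other lines also in each of them. A call needed an adjusted p under 0.05 (Benjamini-Hochberg) and a mean of at least 1 in size. Scripts were tested on simulated data. Figures used matplotlib 3.10.9.

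The members, gene lists and tests were chosen with earlier results of these data known. Rows named are the 10 lowest and 5 highest calls, the 5 lowest and 5 highest called differences and the 5 opposed rows of largest difference. Rows leaning on 1 array, at the limit, called in no other line, opposite in sign to every line or not reversed in line 3 were named after their values were seen. Replicate numbers were not used to pair the arrays in the main fit. Same-numbered arrays deviated together at a mean correlation of 0.00665, beside −0.00499 for different numbers. The 21 same-numbered pairs ranged from −0.191 to 0.486, with 5 over 0.1. Alternatives were other scalings, filters, variance settings, a t-test at the limits in the methods, a replicate block, the sign of line 1 turned, and replicates or lines left out.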

Additional observations from a re-analysis of the deposited data

Results flagged for a closer look

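The difference between line 1 and the mean of the other 7 lines was tested itself and was called in 141 rows. Line 1 differed from each of the other 7 lines in 1 direction in 666 rows. Both counts rest on technical spread, and with the line as replicate 0 rows passed in limma, with 830 at an unadjusted p under 0.05. In the row labelled YOR138C_01, line 1 at −1.51 lay far below the other 7 lines, with a gap to the next line of 0.551 of the whole range, above Dixon's critical value for 8 samples. This was 1 of 17 named rows with values in all 8 lines. These rows were chosen for extreme values in line 1, so the gap describes the row, and the usual rate of chance marks, about 1 in 20 groups, does not apply.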

How the results depend on the processing

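Of 124 values recomputed under other settings for 9 results, 98 stayed within the limits set for the result, 25 moved and 1 reversed. Quantile normalization reversed the tail balance to 0.00273, moved the share of lower calls to 55.0% and raised the calls found in no other line from 4 to 8. It forces all arrays to 1 distribution, so the change in balance is largely built in. Floor values kept as deposited also gave 8 such calls, and 4 calls with the line as replicate, where the line as a random block gave 76. The random block counts technical arrays in its degrees of freedom, as said above. With no fold minimum there were 2539 calls in line 1 (50.6% lower), 3335 in the contrast with the mean of the other 7 lines, 1438 opposed rows and 99 found in no other line. The methods name no test for their p. A t-test run at their 2-fold limit and p under 0.005 gave 14 calls, 2 higher and 12 lower. After Benjamini-Hochberg adjustment the t-test gave 0, with 34 at an unadjusted p under 0.05, where limma gave 39.

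With the sign of line 1 turned, 25 rows were called in the contrast, 16 were set apart from each line and 3 were opposed. Against lines 4, 5 and 7, chosen after seeing the data, these were 231, 1566 and 14 with a correlation of −0.310, and against lines 2, 3, 6 and 8, 1060 were set apart. The correlation with lines 2, 6 and 8 was −0.168. Without line 3 the correlation was −0.303 and 26 calls were found in no other line, a count chosen after seeing the data. With each replicate of line 1 left out in turn, the calls in no other line ranged from 6 to 15 (12 without array 2 and 15 without array 3), the calls of line 1 from 39 to 54, the contrast from 140 to 188, the rows set apart from 510 to 693 and the opposed rows from 29 to 34. The replicate number as a block gave 39 calls in line 1, 141 in the contrast, 661 rows set apart and 28 opposed, and changed no call of line 1. Too few values left 126 rows untested in line 1, of which 48 were tested in all other lines.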

Other observations

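Rows close together in the table showed a weak likeness in line 1. The mean log2 ratios of adjacent rows correlated at 0.0626 and those of rows 50 apart at 0.00831. Of the 33 lower calls, 9 had another lower call within 10 rows of the table. The share of all rows with a lower call that near was not counted, so whether 9 is many is unknown. A running median over 99 rows ran from −0.146 to 0.116, and subtracting it left 36 calls in line 1, 4 higher and 32 lower.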
